A study of Mus musculus with 6 samples.

Results

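The genes described here are 9 genes of the complement system, chosen by symbol from the 32285 genes listed in the deposited single-cell tables: C1qa, C1qb, C1qc, C3, C4b, Cfb, Cfp, C3ar1 and C5ar1. The rule uses the symbols and no measured value, though the genes were proposed with earlier results of these data known. The libraries were made from the enthesis of the mouse rotator cuff, the interface where the supraspinatus tendon inserts into bone, taken at 7 days post-injury (dpi) after the tendon had been cut and sutured back. Adult mice were 12 to 14 weeks old at surgery. The 3 wild-type libraries came from C57BL/6 mice and the 3 Nlrp3-/- libraries from a whole-body knockout of Nlrp3, a sensor protein that assembles the NLRP3 inflammasome, bought from another supplier. Both genotypes received the same injury and repair, so no uninjured tissue was compared. The study describes its replicates as independent, and the labels say that entheses were pooled before cell preparation. It counts as many mice as libraries in each genotype, and how this goes with the pooling is not given in the sources used here, so the p-values measure the spread between libraries. The genotype tag of 2 of the knockout libraries names Nlrp4 or Nlrp5 where their titles name Nlrp3.

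The complement system is a cascade of proteins that tags microbes, dying cells and debris for removal. C1q, a hexamer of trimers built from the A, B and C chains, binds antibody and cell debris and starts the classical pathway, C4 and C2 then form a convertase that cleaves C3, and in the alternative pathway C3b binds factor B (Cfb) in a complex that properdin (Cfp) stabilises. The fragments C3a and C5a act on leukocytes through the receptors C3ar1 and C5ar1. Plasma complement is made largely by the liver, whereas C1q is a textbook product of tissue macrophages and properdin of leukocytes.

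The 6 libraries held 97042713 to 134901999 unique molecular identifiers (UMIs, each standing for 1 captured mRNA molecule), and 70251 cells were used, 9299 to 14982 per library, with a median depth per cell of 3224 to 6697 UMIs. In the library of Nlrp3-/- replicate 1, 10378 cells lay in clusters made almost wholly of that library and were set aside, against 33 to 110 cells in each of the other libraries. Library pairs shared 30 to 129 cell barcodes. Nlrp3 was at 132 ± 36.2 CPM (counts per 1000000 UMIs; SD, n = 3) in wild-type cells and had no UMI in any Nlrp3-/- library. The female transcript Xist was at 0.0623 ± 0.0389 CPM in wild-type and 878 ± 82.9 CPM in Nlrp3-/- cells, and the Y-linked Ddx3y at 49.0 ± 8.76 CPM and 0 CPM, so genotype and sex cannot be told apart in any comparison below. Cells were clustered without the complement genes and named from fixed markers, and each name stands for "like" (macrophages for macrophage-like cells). Each of the 11 cell types compared had its own marker list at its highest level among the 11.

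All 9 genes lie on the minus strand of GRCm38. The C1q genes stand side by side on chromosome 4, where C1qb (ENSMUSG00000036905) spans 136880129 to 136886187, C1qc (ENSMUSG00000036896) 136889804 to 136893065 and C1qa (ENSMUSG00000036887) 136895917 to 136898803, so that the trio fits in 18675 bp. C4b (ENSMUSG00000073418, 34728380 to 34743882) and Cfb (ENSMUSG00000090231, 34856374 to 34862518) lie in the class III region of the major histocompatibility complex on chromosome 17, 112491 bp apart with C4a between them, and C3 (ENSMUSG00000024164, 57203970 to 57228136) lies elsewhere on chromosome 17. Cfp (ENSMUSG00000001128) spans 20925454 to 20931555 on chromosome X, C3ar1 (ENSMUSG00000040552) 122847138 to 122856161 on chromosome 6 and C5ar1 (ENSMUSG00000049130) 16246743 to 16259540 on chromosome 7.

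The RefSeq promoter table (GRCm38.p6, 250 bases before the RefSeq start of each gene) held 6 of the 9 genes, those other than C1qa, C4b and Cfb. The sequences of C1qb, C3 and C3ar1 are shown because they represent the main expression patterns found below, macrophage, neutrophil with fibroblast, and macrophage receptor. Capitals mark a match to 1 of 3 motifs bound by factor families known from myeloid and inflammatory genes, the PU.1 core GAGGAA, the C/EBP motif TTGCNNAA and the AP-1 motif TGANTCA, each searched on both strands.
C1qb, chr4:136886201-136886450, minus strand: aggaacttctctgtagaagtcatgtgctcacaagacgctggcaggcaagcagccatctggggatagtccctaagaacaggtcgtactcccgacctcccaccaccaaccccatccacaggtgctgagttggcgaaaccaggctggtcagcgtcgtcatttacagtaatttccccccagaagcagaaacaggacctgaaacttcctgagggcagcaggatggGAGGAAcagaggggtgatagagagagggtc
C3, chr17:57228137-57228386, minus strand: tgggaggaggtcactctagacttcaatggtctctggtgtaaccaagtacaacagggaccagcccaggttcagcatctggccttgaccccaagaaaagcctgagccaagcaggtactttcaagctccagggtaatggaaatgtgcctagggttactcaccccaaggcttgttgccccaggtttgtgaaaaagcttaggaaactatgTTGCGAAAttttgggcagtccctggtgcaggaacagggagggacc
C3ar1, chr6:122856158-122856407, minus strand: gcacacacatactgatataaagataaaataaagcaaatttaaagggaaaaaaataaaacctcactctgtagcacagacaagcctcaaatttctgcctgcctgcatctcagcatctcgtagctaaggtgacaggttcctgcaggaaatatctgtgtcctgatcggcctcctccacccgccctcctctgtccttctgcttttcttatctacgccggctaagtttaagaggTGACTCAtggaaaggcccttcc
The PU.1 core lay 30 bases upstream of the C1qb start, and C1qc held 1 on the opposite strand 193 bases upstream. Distances are from the RefSeq start, which can differ from the ends given above: 151 of the 250 bases of C1qc, 202 of C5ar1 and 4 of C3ar1 lay inside the span of the gene. The C/EBP match of C3 lay 45 bases upstream and the AP-1 match of C3ar1 22 bases upstream. Of 27025 promoters of the same length, 23.1% held the PU.1 core, 9.55% the C/EBP motif and 6.87% the AP-1 motif, so such matches are common and describe letters only.

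Macrophages held nearly all C1q mRNA. C1qa reached 1552 ± 185 CPM in macrophages (SD, n = 6 libraries), C1qb 1740 ± 230.2 CPM and C1qc 989 ± 225 CPM. Conventional dendritic cells followed, with C1qa at 97.5 ± 75.2 CPM, and in the other 9 types mean C1qa was 8.61 to 20.5 CPM. Macrophages made up 28.3% of cells and 23.8% of UMIs on average but held 96.8 ± 1.12% of C1qa, 96.2 ± 1.36% of C1qb and 96.6 ± 1.15% of C1qc UMIs. The low C1q values outside macrophages stood beside C1q RNA in the ambient profile, the RNA in barcodes too small to hold a cell. In that profile C1qa was at 421, 414 and 319 CPM in the wild-type and 731, 317 and 674 CPM in the Nlrp3-/- libraries.

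**Figure D1:**
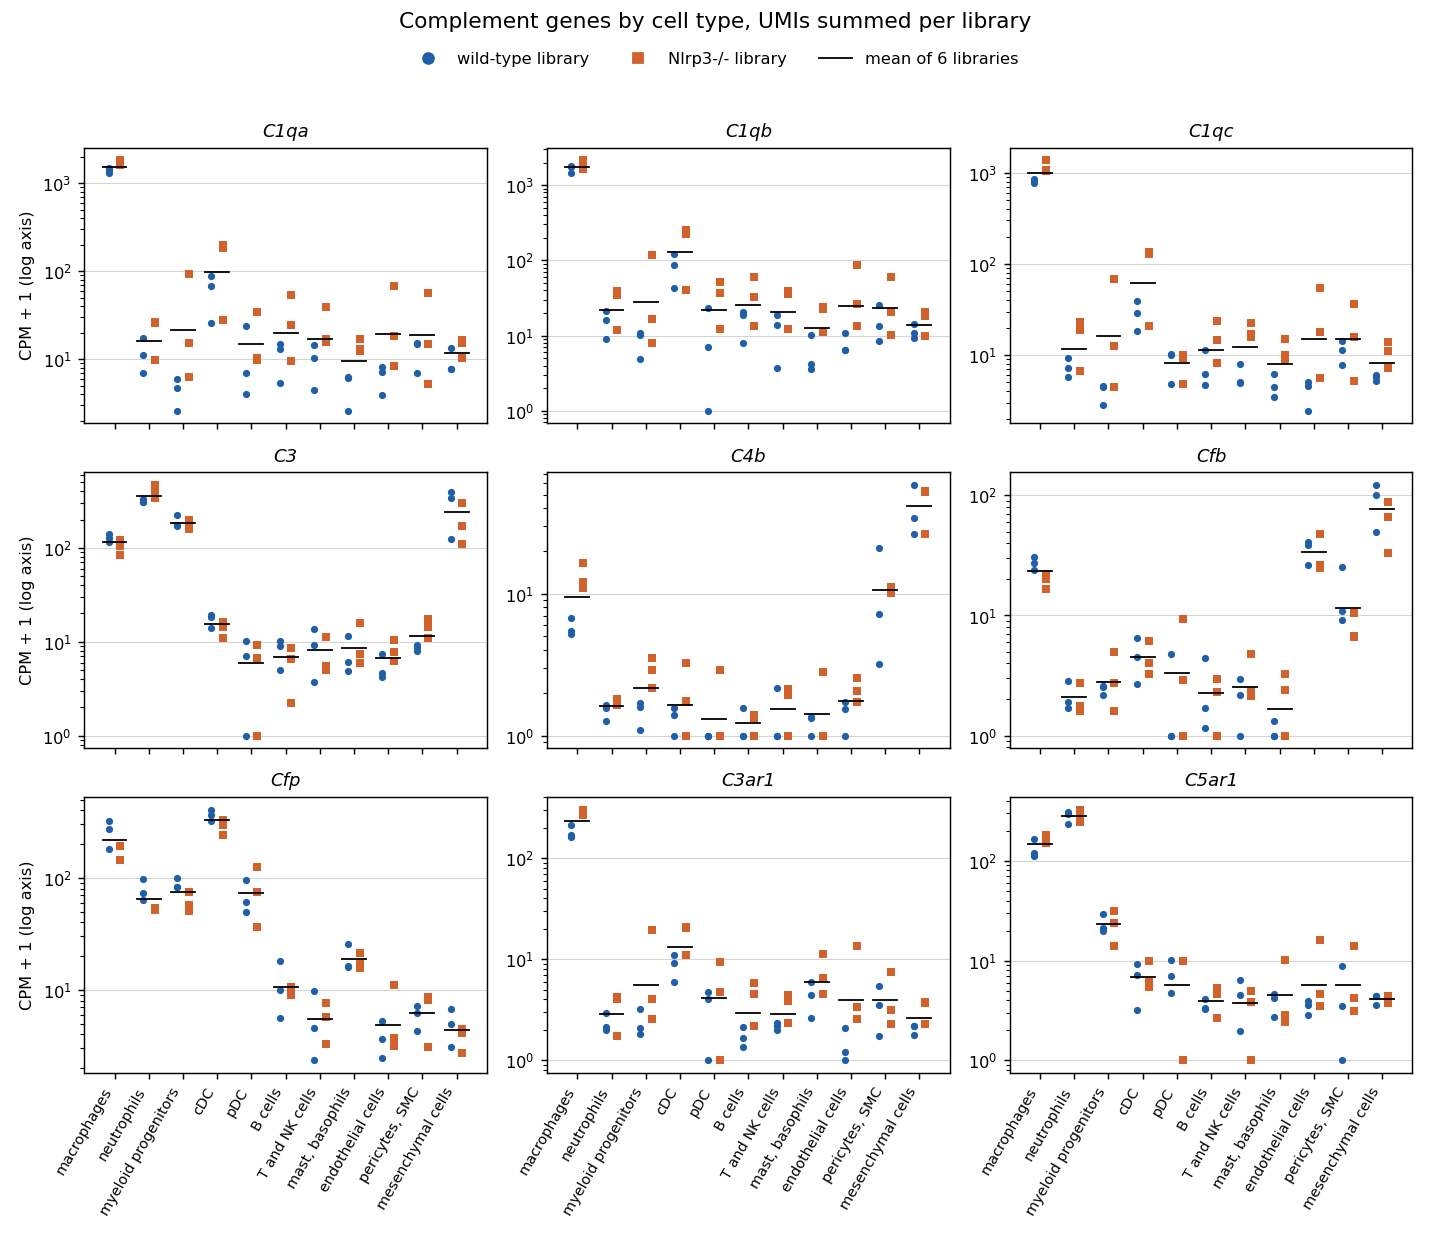
CPM + 1 on a log axis for each of the 9 genes in 11 cell types, with circles for wild-type and squares for Nlrp3-/- libraries and a bar for the mean of 6 libraries. C1qa, C1qb, C1qc and C3ar1 stood highest in macrophages, C3 and C5ar1 in neutrophils, C4b and Cfb in mesenchymal cells and Cfp in conventional dendritic cells.

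Cell by cell, C1q transcripts were found together. After each cell was thinned to 1000 UMIs, 37.3% of macrophages had a UMI of C1qa, 40.8% of C1qb and 34.4% of C1qc (45.9%, 49.7% and 45.3% before thinning), against 1.86% of neutrophils for C1qa (4.41% before thinning). Thinning kept 18915 of 20217 macrophages, whose median depth was 3870.5 to 6133.5 UMIs over the libraries, and 16432 of 19552 neutrophils, with 1374 to 3534 UMIs. At that depth 53.9 ± 7.26% of macrophages had none of the C1q transcripts, 7.87 ± 1.43% had 1, 10.1 ± 1.70% had 2 and 28.1 ± 5.66% had all 3. All 3 were found in 1.51% of conventional dendritic cells and 0.0313% of neutrophils. The ratio of C1qb to C1qa was 1.12 ± 0.0939 in macrophages, from 0.995 in Nlrp3-/- replicate 1 to 1.22, and 1.45 ± 0.0899 in the ambient profile, with 1.36 ± 0.120 in neutrophils.

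Within the macrophages C1q levels varied widely between subsets. In Mrc1 Folr2 macrophages, a subset led by Ccl8, Slc40a1 and Gas6, C1qa was at 4575, 3612 and 3880 CPM in the wild-type and 4466, 4920 and 3973 CPM in the Nlrp3-/- libraries. The 6 libraries gave 4238 ± 494 CPM and the genotypes overlapped. MHC-II macrophages, whose leading genes include antigen presentation genes such as H2-Eb1, had 3110 ± 396 CPM of C1qa (a cluster of 626 of these cells, at 486 CPM and a median of 1010 UMIs, was led by Gm26917, Ciita and histone genes instead), osteoclasts, the bone-resorbing cells, 88.5 ± 18.4 CPM, and Ly6c2 Ccr2 monocytes, the inflammatory blood-derived cells, 33.9 ± 12.9 CPM. Among single clusters, C1qa was highest in the MHC-II cluster led by Ccl8 and H2-Eb1, at 5038 CPM, and at 16.2 CPM in the largest Ly6c2 cluster.

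**Figure D2:**
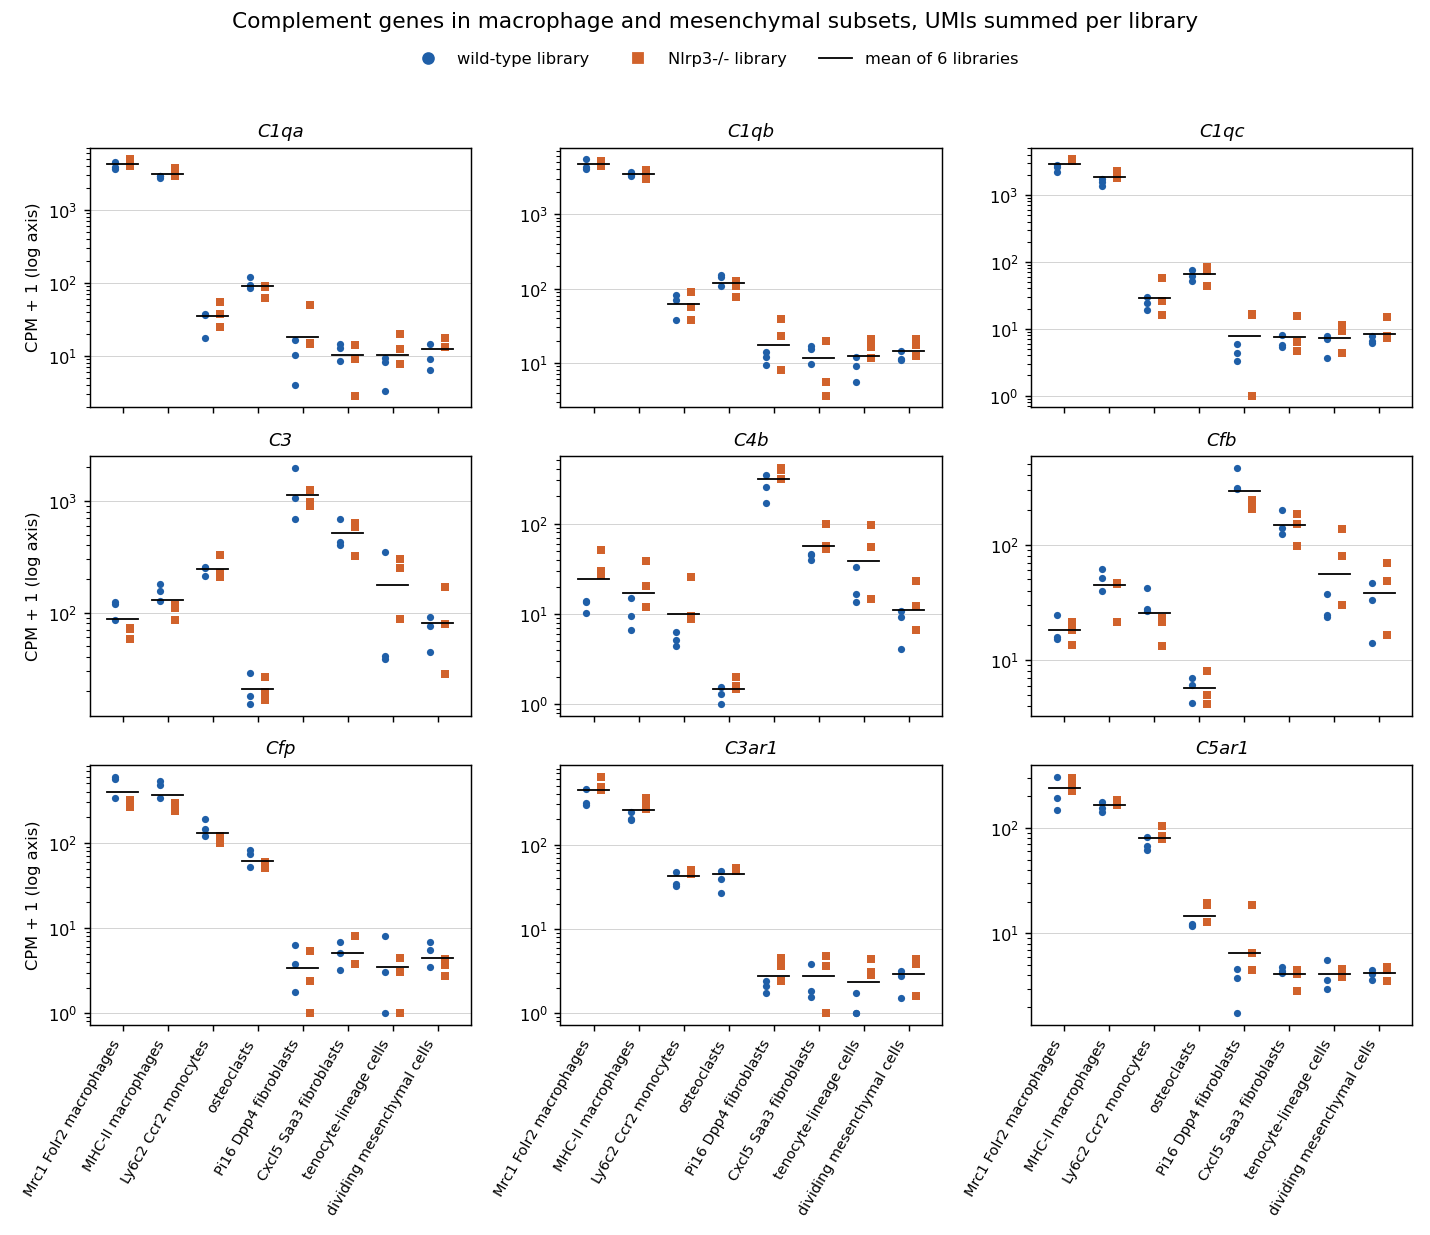
CPM + 1 on a log axis for the 9 genes in 4 macrophage and 4 mesenchymal subsets, with circles for wild-type and squares for Nlrp3-/- libraries and a bar for the mean of 6. The C1q genes and C3ar1 stood highest in Mrc1 Folr2 macrophages, and C3, C4b and Cfb in Pi16 Dpp4 fibroblasts.

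C3, the protein at which the pathways meet, was highest in neutrophils and mesenchymal cells. In neutrophils C3 was at 308, 306 and 330.2 CPM in the wild-type libraries and 337, 469 and 391 CPM in the Nlrp3-/- libraries. Every Nlrp3-/- value lay above the wild-type values in CPM, where the median gene was also 0.26 higher on the log2 scale, and the fit that scales this away gave 0.10 ± 0.14 (SE; adjusted p = 0.778, edgeR). Mesenchymal cells had 239.8 ± 121 CPM, myeloid progenitors 185 ± 22.1 CPM and macrophages 115 ± 20.2 CPM, whereas the other 7 types had 4.87 to 14.4 CPM. Neutrophils and mesenchymal cells stood next to each other in the order, and C3 was higher in neutrophils in 4 of 6 libraries (exact sign-flip permutation test over 6 libraries, two-sided, p = 0.16, adjusted p = 0.379 over 153 pairs), while mesenchymal cells were above myeloid progenitors in 3 of 6 (exact permutation p = 0.5, adjusted p = 0.879). The smallest exact p that 6 libraries allow, 0.03125, came to 0.106 after adjustment, so no pair passed and a miss does not show that levels were alike. Mesenchymal cells held 44.8 ± 15.3% of C3 UMIs, neutrophils 26.2 ± 8.66%, macrophages 16.3 ± 6.15% and myeloid progenitors 11.2 ± 5.01%.

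**Figure D3:**
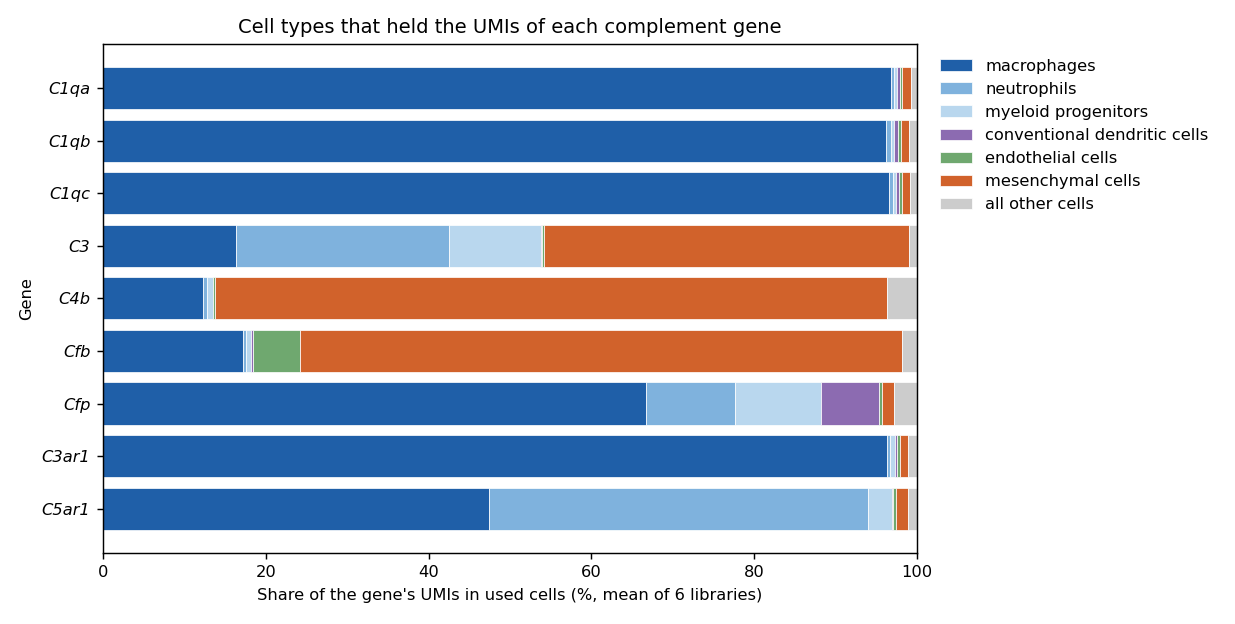
Share of each gene's UMIs (percent of UMIs in used cells, mean of 6 libraries) held by each cell type, as stacked bars. Macrophages held over 96% of the UMIs of each C1q gene and of C3ar1, whereas C3 was divided mainly between mesenchymal cells (44.8%) and neutrophils (26.2%).

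C3 and the C5a receptor differed in where they stood among the neutrophil clusters. C3 was at 494 ± 50.7 CPM (438 to 580 over 6 libraries) in the cluster led by Ngp, Camp and Chil3, genes of maturing neutrophils that fill the secondary granules, at 416 ± 60.5 CPM in that led by Ngp, Camp and Ltf, and at 258 ± 20.7 CPM in that led by Retnlg and Mmp8. It was at 178 ± 91.1 CPM in the cluster led by Cstdc4, Il1a and Asprv1 and 133 ± 20.1 CPM in that led by Retnlg and Stfa1. In the same order C5ar1 was at 126 ± 10.7, 251 ± 33.8, 369 ± 49.6, 507 ± 106 and 433 ± 79.5 CPM. Cfp followed C5ar1, from 23.0 ± 6.63 CPM in the first cluster to 109.8 ± 44.1 CPM in the fourth. The clusters were made without these genes, but their order here is that of mean C3, so C3 falls along it by construction. The values are a description.

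**Figure D4:**
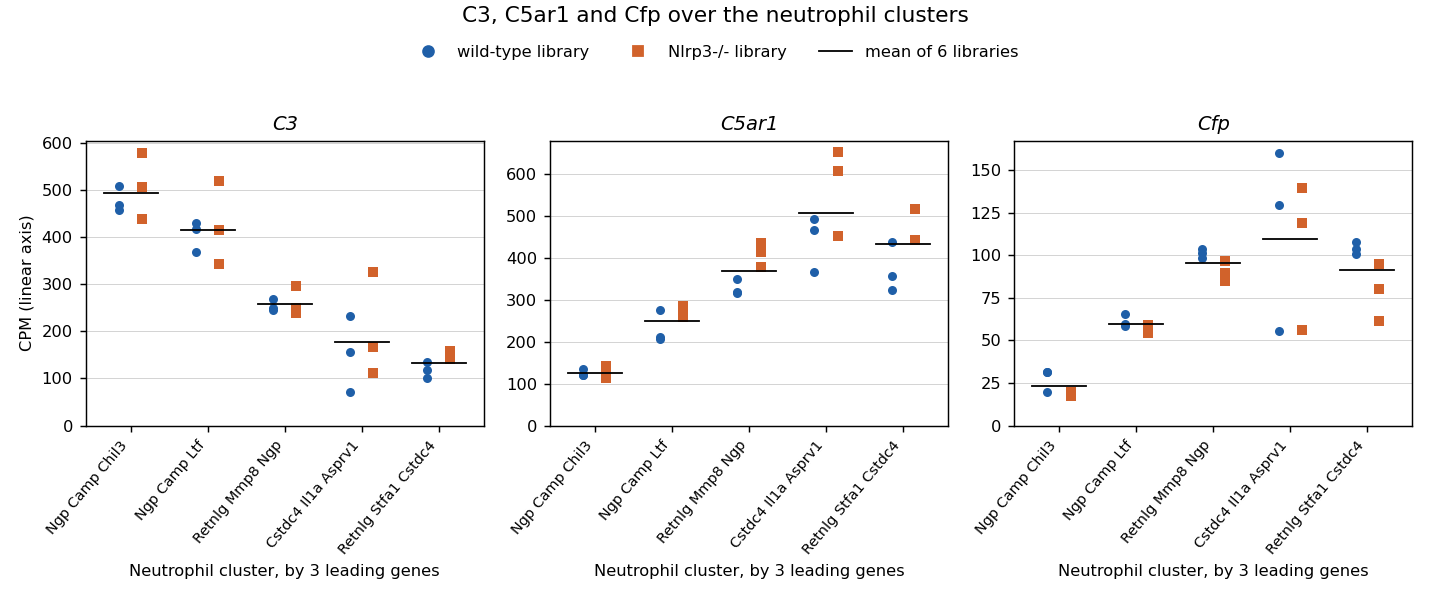
CPM (linear axis) of C3, C5ar1 and Cfp in the 5 neutrophil clusters with at least 20 cells in all 6 libraries, ordered by mean C3, with circles for wild-type and squares for Nlrp3-/- libraries and a bar for the mean. Mean C3 went from 494 to 133 CPM along the order, while mean C5ar1 went from 126 to 507 CPM in the fourth cluster and 433 CPM in the last.

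Among mesenchymal cells C3, C4b and Cfb shared a peak in Pi16 Dpp4 fibroblasts, which carry markers of the adventitial progenitor fibroblasts described in many tissues. C3 was at 1056, 1967 and 692 CPM there in the wild-type and 903, 1253 and 983 CPM in the Nlrp3-/- libraries, the highest level of C3 in any subset. C4b was at 166, 347 and 250.1 CPM and at 394, 409 and 311 CPM. Cfb was at 301, 458 and 310.4 CPM and at 233, 241 and 203 CPM, with every Nlrp3-/- library below the wild-type ones, whereas the ranges of C3 and C4b overlapped between genotypes. These values rest on 158, 348 and 98 cells in the wild-type and 32, 62 and 340 cells in the Nlrp3-/- libraries. Cxcl5 Saa3 fibroblasts, which carry inflammatory genes, followed with C3 at 511 ± 147, C4b at 55.4 ± 22.0 and Cfb at 148 ± 37.9 CPM. The contractile cluster led by Actg2, Tubb3 and Cnn1 had 34.6 CPM of C3 and the chondrocyte cluster 16.1 CPM.

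C4b and Cfb, which belong to the classical and the alternative convertase, were highest in mesenchymal cells. Mesenchymal cells had 40.7 ± 14.4 CPM of C4b and held 82.6 ± 8.40% of its UMIs, with 12.3 ± 7.20% in macrophages. C4b averaged 9.62 ± 5.86 CPM in pericytes and smooth muscle cells and 8.48 ± 4.45 CPM in macrophages, with pericytes higher in 3 of 6 libraries (exact permutation p = 0.91, adjusted p = 1). C4b and its near-identical neighbour C4a can share reads, and C4a was counted at 16 UMIs in all macrophages and 34 in all mesenchymal cells against 1004 and 8036 of C4b, so a split between the copies cannot be told apart from low C4a. Mesenchymal Cfb averaged 75.7 ± 33.2 CPM, followed by endothelial cells at 33.0 ± 9.44 CPM and macrophages at 22.5 ± 5.08 CPM. Mesenchymal cells held 73.9 ± 10.9% of Cfb UMIs. At 1000 UMIs per cell, 2.27 ± 1.02% of mesenchymal cells had both C3 and C4b, against 0.767% from the product of their single shares.

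Cfp, which stabilises the alternative convertase, was highest in conventional dendritic cells among the 11 types, followed by macrophages, of which the Mrc1 Folr2 (399.6 ± 143 CPM) and MHC-II (362 ± 121 CPM) subsets had higher means than dendritic cells. Conventional dendritic cells had 365, 406 and 324 CPM in the wild-type and 326, 242 and 297 CPM in the Nlrp3-/- libraries, with overlapping ranges. Macrophages had 216 ± 66.5 CPM, myeloid progenitors 73.8 ± 18.0 CPM, plasmacytoid dendritic cells 72.9 ± 32.5 CPM and neutrophils 64.4 ± 17.8 CPM. Because macrophages outnumbered dendritic cells, they held 66.7 ± 9.48% of Cfp UMIs and conventional dendritic cells 7.13 ± 1.27%. At 1000 UMIs, 23.8% of conventional dendritic cells (60.6% unthinned) and 0.355% of mesenchymal cells had a Cfp UMI.

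The anaphylatoxin receptors differed in where they were found. C3ar1, the receptor for C3a, was at 231 ± 58.8 CPM in macrophages, 12.1 ± 6.10 CPM in conventional dendritic cells and at most 4.88 CPM on average elsewhere. Within macrophages it reached 439 ± 125 CPM in Mrc1 Folr2 macrophages and 41.6 CPM in Ly6c2 Ccr2 monocytes. C5ar1, the receptor for C5a, was shared, at 279 ± 36.1 CPM in neutrophils and 147 ± 27.4 CPM in macrophages, which held 46.6 ± 10.7% and 47.4 ± 10.4% of its UMIs. At 1000 UMIs 4.37 ± 1.10% of macrophages and 0.0321% of neutrophils had both receptors.

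Macrophages were tested against 3 other types. All 11 types entered 1 fit, so the spread behind its p-values is pooled over the types and does not come from the 2 compared types alone. In edgeR quasi-likelihood tests on UMIs summed per library and type, with the library as a block and Benjamini-Hochberg adjustment over 13572 genes, all 9 genes differed between macrophages and neutrophils, where 75.3% of all tested genes did. All 9 differed between macrophages and mesenchymal cells (77.9% of all genes) and between macrophages and conventional dendritic cells (43% of all genes). C3ar1 was higher in macrophages than in neutrophils by 6.23 ± 0.30 on the log2 scale (SE; adjusted p = 4.39e-27 by edgeR), C3 differed by -2.53 ± 0.18 (adjusted p = 4.02e-19) and C5ar1 by -1.83 ± 0.17 (adjusted p = 1.61e-14). Against mesenchymal cells C4b differed by -2.33 ± 0.20 (adjusted p = 7.7e-16) and Cfb by -1.65 ± 0.20 (adjusted p = 5.28e-11), so both were lower in macrophages. Cfp was lower in macrophages than in conventional dendritic cells, by -0.60 ± 0.15 (adjusted p = 0.00103). The median log2 difference of the 9 genes was 3.49, 6.06 and 3.89 in the 3 comparisons, beside -0.01, -0.05 and 0.14 over all genes. Over the orders of types and subsets, 153 neighbouring pairs were compared and none passed the adjusted threshold, since the smallest exact p that 6 libraries allow is 0.03125 (adjusted 0.106), which 45 pairs reached.

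The comparison of genotypes asked whether loss of Nlrp3 went with other complement levels in each cell type at 7 dpi. Of the 9 genes, 0 passed the adjusted threshold in macrophages, where 0.38% of 12886 genes did, and 6 of 9 had an unadjusted p under 0.05, as did 18.8% of all genes. C4b came nearest. It was at 4.48, 5.76 and 4.17 CPM in wild-type and 11.04, 15.4 and 9.97 CPM in Nlrp3-/- macrophages. The genotypes did not overlap, and the fitted difference was 1.15 ± 0.20 on the log2 scale (SE; adjusted p = 0.0728, edgeR). C3ar1 was at 161, 168 and 213 CPM and at 268, 275 and 301 CPM, again without overlap, with a fitted difference of 0.49 ± 0.12 (adjusted p = 0.147, edgeR). The subsets made up unequal parts of the macrophages. Mrc1 Folr2 macrophages were 384 of 3528, 670 of 4916 and 306 of 2076 cells in the wild-type libraries. In the Nlrp3-/- libraries they were 627 of 3684, 235 of 2198 and 911 of 3815 cells. Ly6c2 Ccr2 monocytes were 1055, 959 and 623 cells in the wild-type and 447, 643 and 577 cells in the Nlrp3-/- libraries. Macrophage clusters without a name, which entered no subset, held 1115, 1669 and 635 cells in the wild-type libraries. In the Nlrp3-/- libraries they held 1554, 621 and 1095 cells. The part of this make-up in the macrophage values, here and below, was not tested.

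None of the C1q genes passed the test between genotypes in the cells with most of their mRNA. C1qa was at 1476, 1418 and 1316 CPM in wild-type and 1623, 1647 and 1830 CPM in Nlrp3-/- macrophages, with a fitted difference of 0.12 ± 0.13 (adjusted p = 0.643, edgeR). C1qc was at 815, 774 and 856 CPM and at 1082, 1033 and 1375 CPM (0.36 ± 0.14, adjusted p = 0.243). Neither overlapped between genotypes in CPM, while C1qb did, at 1794, 1724 and 1456 CPM and 1616, 1705 and 2146 CPM. The share of all genes without overlap is not given here. A lack of overlap, in these and other cells, therefore only describes the values of the libraries. CPM ratios and fitted differences are on different footings here. Over 11513 genes the median log2 ratio of mean CPM was 0.16 higher in Nlrp3-/- macrophages, and the fit scales this away, so that C1qb was 0.14 higher as a log2 ratio of CPM and -0.03 ± 0.17 in the fit. The same shift was 0.26 in neutrophils and 0.10 in mesenchymal cells, and it turned the sign of C5ar1 in both.

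The alternative pathway genes and C3 had lower means in Nlrp3-/- macrophages, and none passed the test. Cfb was at 29.6, 26.5 and 23.1 CPM in wild-type and 19.2, 15.5 and 21.0 CPM in Nlrp3-/- macrophages, without overlap (-0.67 ± 0.18, adjusted p = 0.155, edgeR). Cfp, which is X-linked, was at 274, 319.9 and 179 CPM and at 189.9, 144 and 189.9 CPM, with overlap (-0.73 ± 0.25, adjusted p = 0.197). C3 was at 127, 141 and 115 CPM and at 104, 119 and 82.5 CPM (-0.49 ± 0.16, adjusted p = 0.184), with overlap. C5ar1 differed by 0.16 ± 0.16 (adjusted p = 0.583). DESeq2 called 4 of the 9 (C4b, Cfb, Cfp and C3ar1), the fit without wild-type replicate 3 called 5, with C3 added, the fit without a filter on low counts called C4b and Cfb, and subtraction of the ambient profile called C4b (1.23, adjusted p = 0.0482). These fits also called more of all genes, 521 with DESeq2, 2512 without wild-type replicate 3, 325 without the filter and 53 after ambient subtraction, against 49. The other fits that left out 1 library called none.

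Among the macrophage subsets, C4b passed the threshold in Mrc1 Folr2 macrophages, 1 of 9 genes where 0.558% of 9502 genes passed. C4b was at 12.6, 9.18 and 13.01 CPM in the wild-type libraries and 25.8, 50.6 and 28.6 CPM in the Nlrp3-/- libraries, from 31 to 178 UMIs per library. The genotypes did not overlap and the fitted difference was 1.43 ± 0.26 (adjusted p = 0.04, edgeR). Leaving out any of 4 libraries ended the C4b call, with an edgeR adjusted p of 0.129 without the first and 0.173 without the second of the wild-type libraries, and of 0.0887 without the second and 0.0975 without the third of the Nlrp3-/- libraries, while the fitted difference stayed between 1.15 and 1.59. The 8 mesenchymal markers, all detected in each of these libraries, summed to 219 to 461 CPM in the wild-type and 420 to 1050 CPM in the Nlrp3-/- libraries of this subset, with Col1a1 at 71.3 to 189 and 221 to 398 CPM and Pdgfra at 0.51 to 2.1 and 0.617 to 2.09 CPM. C4b in the ambient profile was at 11.6, 26.9 and 9.71 CPM in the wild-type and 15.7, 22.7 and 31.1 CPM in the Nlrp3-/- libraries. The part of either in the C4b difference of this subset was not tested. C4a had no UMI in Mrc1 Folr2 macrophages.

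**Figure D5:**
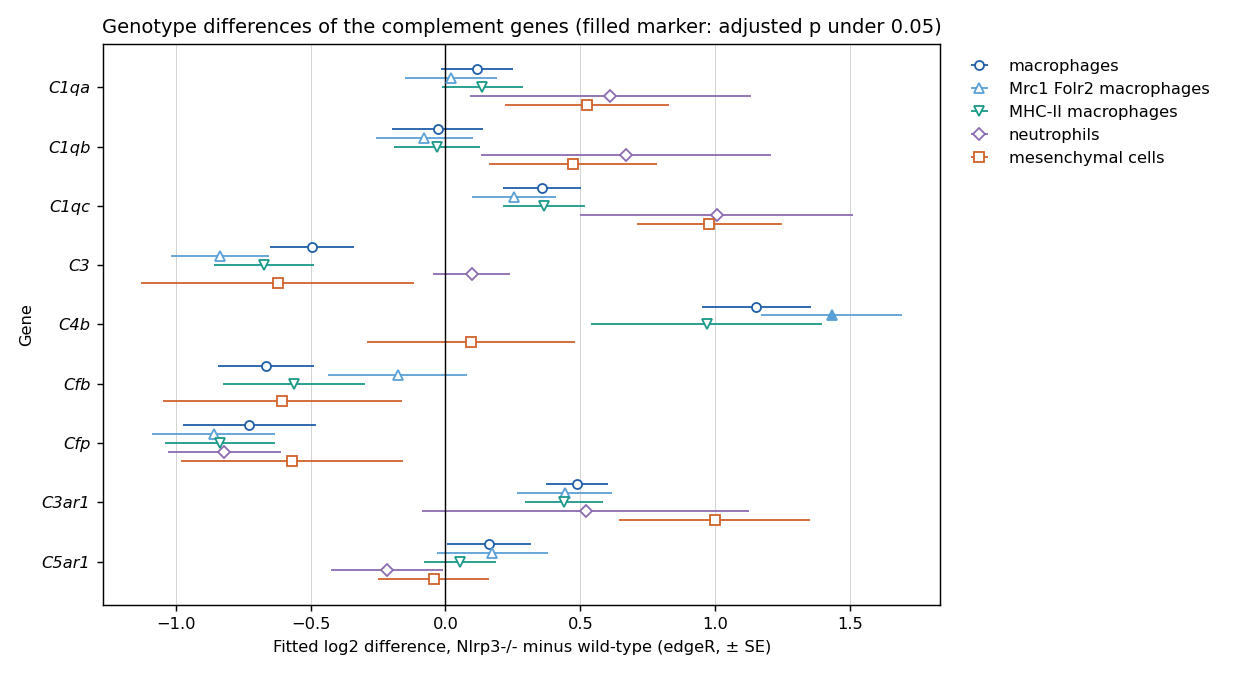
Fitted log2 difference (Nlrp3-/- minus wild-type, edgeR, with SE bars) of each gene in macrophages, 2 of their subsets, neutrophils and mesenchymal cells, with filled markers for an adjusted p under 0.05. The filled marker is C4b in Mrc1 Folr2 macrophages (1.43 ± 0.26), and the fits of Cfp lay below 0 in each of these cells, although in mesenchymal cells Cfp was at 0.84 when clusters of 1 library were kept.

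Other genes of the same subset missed the threshold. C3 in Mrc1 Folr2 macrophages was at 122, 118 and 85.2 CPM in wild-type and 57.2, 70.3 and 72.3 CPM in Nlrp3-/- libraries, without overlap (-0.83 ± 0.18, adjusted p = 0.0725, edgeR). Cfp was at 567, 595 and 332 CPM and at 317, 266 and 320.1 CPM, also without overlap (-0.86 ± 0.23, adjusted p = 0.106). C3ar1 differed by 0.44 ± 0.18 (adjusted p = 0.229).

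MHC-II macrophages gave values near these, with 0 of 9 genes called where 0.547% of all genes were and 5 were at an unadjusted p under 0.05, as were 16.7% of all genes. C3 was at 154, 179.9 and 127 CPM in wild-type and 109.6, 84.7 and 116 CPM in Nlrp3-/- libraries (-0.67 ± 0.18, adjusted p = 0.151, edgeR), Cfp differed by -0.84 ± 0.20 (adjusted p = 0.12) and C3ar1 by 0.44 ± 0.14 (adjusted p = 0.195). Without wild-type replicate 3 these 3 passed in MHC-II macrophages. Over all genes, fits that left out 1 library called 16 to 1348 there, against 53. In Ly6c2 Ccr2 monocytes (0 of 9, 0.439% of all genes; unadjusted, 3 and 13.1%) Cfb differed by -0.92 ± 0.29 (adjusted p = 0.273), and in osteoclasts (0 of 8 tested, 0.501%; unadjusted, 3 and 19.5%) Cfp differed by -0.58 ± 0.20 (adjusted p = 0.169). C1qa in osteoclasts was at 118, 83.2 and 93.8 CPM in wild-type and 88.4, 61.4 and 85.8 CPM in Nlrp3-/- libraries, with overlap and a fitted difference of -0.51 ± 0.19 (adjusted p = 0.191, edgeR), of the opposite sign to that in all macrophages. Without wild-type replicate 1 it was -0.31, and without wild-type replicate 3 it passed (-0.61, adjusted p = 0.0443), as did Cfp in osteoclasts (-0.79, adjusted p = 0.00227), which was at -0.38 without wild-type replicate 2. Over all genes, fits of osteoclasts that left out 1 library called 16 to 2025, against 50. The macrophage subsets share libraries with all macrophages and with each other, so these values are not independent of those above.

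Neutrophils gave 0 of 7 tested genes, where 0.35% of all genes were called, and 1 of the 7 had an unadjusted p under 0.05, as did 14.2% of all genes. Cfp was at 72.8, 96.4 and 61.9 CPM in the wild-type and 51.5, 53.3 and 50.6 CPM in the Nlrp3-/- libraries, without overlap (-0.82 ± 0.21, adjusted p = 0.208, edgeR). The Nlrp3-/- values were close to each other and below the lowest wild-type value. C3 is given above, and for C5ar1 the fitted difference was -0.22 ± 0.21 (adjusted p = 0.647). The neutrophil clusters were present in unequal shares, with the cluster led by Ngp, Camp and Chil3 giving 33.7%, 23.0% and 30.9% of neutrophil UMIs in the wild-type and 27.9%, 43.0% and 40.5% in the Nlrp3-/- libraries and that led by Retnlg and Stfa1 giving 9.57% to 15.1% and 4.32% to 5.71%, and their part in the differences of Cfp and C3 was not tested.

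In mesenchymal cells 0 of 9 genes passed, where 0.108% of all genes did, and 2 had an unadjusted p under 0.05, as did 12.4% of all genes. The lowest adjusted p was that of C1qc (0.355, edgeR). For Nlrp3-/- replicate 1 this comparison used 1950 mesenchymal cells. A cluster of 6066 cells also named mesenchymal cells, 98.3% of them from that library, was set aside (median 1304 UMIs). C3 ranged widely within each genotype, at 339.7, 395 and 124 CPM in wild-type and 110.4, 169.6 and 301 CPM in Nlrp3-/- libraries (-0.62 ± 0.51, adjusted p = 0.573, edgeR). C4b was at 33.1, 57.5 and 25.3 CPM and at 25.5, 50.9 and 51.8 CPM (0.10 ± 0.39, adjusted p = 0.911), and Cfb at 100.1, 121 and 48.6 CPM and at 32.3, 65.3 and 86.5 CPM (-0.60 ± 0.44, adjusted p = 0.537). The genotypes overlapped for all of these. Leaving out 1 library gave -1.07 (without Nlrp3-/- replicate 3) to -0.32 (without wild-type replicate 2) for C3 and -0.92 (without wild-type replicate 3) to -0.29 (without Nlrp3-/- replicate 1) for Cfb, and -0.15 (without wild-type replicate 3) to 0.50 (without wild-type replicate 2) for C4b, whose sign turned, with no call. Different clusters made up the mesenchymal cells of the libraries, with the Cxcl5 Saa3 cluster led by Saa3 and Cxcl5 giving 21.0%, 36.0% and 1.90% of mesenchymal UMIs in the wild-type and 2.65%, 0% and 0.992% in the Nlrp3-/- libraries, the other Cxcl5 Saa3 cluster, led by Mmp3 and Saa3, giving 5.41%, 2.53% and 10.3% and 4.17%, 3.31% and 17.7%, and the chondrocyte cluster led by Col2a1 ranging from 0.0401% to 41.1% over the 6, and their part in the values was not tested. Mesenchymal clusters without a name, which entered no subset, held 171 of 1162, 267 of 2372 and 261 of 1491 cells in the wild-type libraries. In the Nlrp3-/- libraries they held 1324 of 1950, 118 of 1829 and 1238 of 3075 cells, and their part was not tested either. The difference of the genotype effect on C4b between mesenchymal cells and macrophages was -1.05 ± 0.35 (adjusted p = 0.283), and 0 of 9 genes passed that interaction test, where 0.184% of all genes did.

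Mesenchymal subsets gave no call, with 1 to 4 genes in each at an unadjusted p under 0.05, beside 10.9% to 15.7% of all genes. In Pi16 Dpp4 fibroblasts (0 of 5 tested, 0.251% of all genes) the Cfb values given above differed by -0.81 ± 0.22 (adjusted p = 0.203, edgeR), C3 by -0.40 ± 0.33 (adjusted p = 0.645). Leaving out 1 library gave C3 values of -0.68 (without wild-type replicate 3) to 0.12 (without wild-type replicate 2) there, so the direction turned, and Cfb was called when the third wild-type library was left out (-0.92, edgeR adjusted p = 0.0274). Over all genes, fits of this subset that left out 1 library called 3 to 516, against 24. In tenocyte-lineage cells, marked by Tnmd and Kera (0 of 8, 0.292%), C3 was at 348, 39.5 and 37.1 CPM in wild-type and 86.1, 300.2 and 248 CPM in Nlrp3-/- libraries, C4b differed by 1.90 ± 0.48 (adjusted p = 0.135) and Cfb by 1.72 ± 0.40 (adjusted p = 0.109). The ranges of C3 overlapped. Leaving out 1 library gave 0.25 to 2.43 for C3, 1.23 to 2.20 for C4b and 1.17 to 2.02 for Cfb in this subset, which held 39 cells in wild-type replicate 1. The lowest C4b and Cfb values came without Nlrp3-/- replicate 2, C3 passed without wild-type replicate 1 (2.43, adjusted p = 0.0287, edgeR), and C4b (adjusted p = 0.0238) and Cfb (adjusted p = 0.0103) passed without Nlrp3-/- replicate 1. Over all genes, fits of tenocyte-lineage cells that left out 1 library called 22 to 449, against 33. Nlrp3-/- replicate 2 gave 49.8% of the cells of the largest tenocyte cluster and wild-type replicate 3 gave 69.2% of the next, so the libraries held different clusters of this subset. Cxcl5 Saa3 fibroblasts (0.15% of all genes called) and dividing mesenchymal cells (0.142%) gave 0 of 9 each.

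The remaining types gave no call among the genes tested. These were 6 in conventional dendritic cells (1.3% of all genes called), 7 in endothelial cells (0.321%), 9 in myeloid progenitors (0.429%), 6 in pericytes and smooth muscle cells (0.211%), 6 in mast cells and basophils (0.289%), 5 in B cells (0.288%), 3 in T and NK cells (1.02%) and 1 in plasmacytoid dendritic cells (1.97%). At an unadjusted p under 0.05 the edgeR counts were 3, 4, 6, 1, 3, 0, 3 and 0 in the same order, beside 21%, 20%, 18.3%, 13.3%, 14.3%, 8.45%, 12.7% and 17% of all genes. The lowest adjusted p (edgeR) was that of C1qc in conventional dendritic cells (0.094), T and NK cells (0.0792) and B cells (0.597). It was that of C1qb in endothelial cells (0.139), C1qa in mast cells and basophils (0.22), and Cfb or Cfp in the others. Ambient C1qa was at 421, 414 and 319 CPM in the wild-type and 731, 317 and 674 CPM in the Nlrp3-/- libraries. Its part in the C1q values of these types was not tested. Cfp in conventional dendritic cells differed by -0.55 ± 0.18 (adjusted p = 0.118, edgeR) and in myeloid progenitors, where it was at 97.9, 82.3 and 82.6 CPM and at 73.9, 49.4 and 56.6 CPM without overlap, by -0.77 ± 0.18 (adjusted p = 0.11). In plasmacytoid dendritic cells the fit of Cfp lay above 0, at 0.071 (adjusted p = 0.941, edgeR). C1qa in endothelial cells and myeloid progenitors was highest in Nlrp3-/- replicate 1. It was at 6.24, 7.17 and 2.88 CPM in wild-type and 67.6, 7.47 and 17.6 CPM in Nlrp3-/- endothelial cells (2.29, adjusted p = 0.16), and in myeloid progenitors at 4.90, 3.76 and 1.60 CPM and at 92.9, 5.33 and 14.4 CPM (3.16, adjusted p = 0.175). The 10 macrophage markers summed to 111 to 130 CPM in wild-type and 222 to 353 CPM in Nlrp3-/- endothelial cells, with Ms4a7 at 1.44 to 3.58 and 4.98 to 37.5 CPM and none of them at 0, and the most ambient RNA that the endothelial cells of Nlrp3-/- replicate 1 could hold was 7.65% of their UMIs. The part of these in the C1q values was not tested.

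The 44 other complement genes placed the 9 in their pathway. For the proteases and inhibitor of C1, Serping1 was highest in pericytes and smooth muscle cells (851 ± 102 CPM) and, among subsets, in Pi16 Dpp4 fibroblasts (1376 ± 143 CPM). C1s1 was at 273 ± 78.4 CPM in pericytes and 570.3 ± 106 CPM in Pi16 Dpp4 fibroblasts, and C1ra at 58.4 ± 14.2 CPM in mesenchymal cells, while macrophages had 1.72 CPM of C1s1 and 2.02 CPM of C1ra. C1r and C1s are the proteases that C1q recruits. C2, the partner of C4, was highest in pericytes (23.5 ± 11.1 CPM) and in Pi16 Dpp4 fibroblasts (65.9 ± 13.5 CPM), whereas Cfd, the protease that cleaves factor B, reached 1.80 CPM in its highest type.

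Of the recognition molecules of the lectin pathway, Fcnb was highest in myeloid progenitors (444 ± 144 CPM), Colec12, a scavenger receptor, in mesenchymal cells (131 ± 20.1 CPM) and Colec11 in pericytes (26.7 ± 11.8 CPM). Genes of the terminal complex were near 0, with a highest mean of 1.75 ± 0.846 CPM for C8g and 0.795 ± 0.347 CPM for Hc, which encodes C5, and no UMI of C8b in any of the 11 types. Regulators had other places again, Vtn in pericytes (152 ± 71.5 CPM), Clu (133 ± 43.7 CPM) and Cr1l (88.6 ± 9.47 CPM) in endothelial cells. Among the receptors, Cd93 was at 940.04 ± 194 CPM in endothelial cells, and the integrin chains of complement receptor 3, Itgam and Itgb2, at 529 ± 114 and 329 ± 47.8 CPM in neutrophils. By genotype 0 of 22 tested genes of this list passed in macrophages, 0 of 14 in neutrophils and 0 of 28 in mesenchymal cells. Between types, 19 of 24 differed between macrophages and neutrophils, 7 higher and 12 lower in macrophages, 21 between macrophages and mesenchymal cells (8 higher, 13 lower) and 13 between macrophages and conventional dendritic cells (11 higher, 2 lower), where 75.3%, 77.9% and 43% of all genes differed.

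Likeness was described by Pearson's r of mean log2(CPM + 1) across the 19 profiles of types and subsets, which share libraries and overlap in cells. Each member was set against 10065 genes, and the nearest genes named are those with the highest r among them. Outside the trio, C1qa was most like Fcna (r = 0.974), Ms4a7 (r = 0.973) and Spic (r = 0.973), and C3ar1 like Ms4a7 (r = 0.977). Ms4a7 is also among the markers that named macrophages, so its r is not independent of the naming. Within the trio r was 0.996 to 0.998. C4b and Cfb resembled each other (r = 0.904) more than either resembled C3 (r = 0.742 and 0.644). C3 was nearest to Gm26771 (r = 0.857), Cfp to Fcgr2b (r = 0.971), and C5ar1 to C5ar2 (r = 0.967), the second receptor for C5a.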

How the data were processed

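Single-cell RNA was measured in 6 libraries of injured and repaired mouse enthesis, 3 per genotype. The authors deposited raw UMI counts per gene and barcode, with no normalization, made by Cell Ranger; the submitters' notes name version 2.1.1 with mm10, the file headers version 4. Barcodes with at least 500 UMIs that differed from the ambient profile (false discovery rate 0.01), with at least 200 genes and at most 10% mitochondrial UMIs, were kept. The cells with the highest Scrublet doublet scores were removed, at an assumed rate of 0.8% per 1000 cells (828 to 5742 per library). Scrublet's own automatic calls, 0 to 7303 per library, were not used. Cells were clustered (scanpy 1.11.5, Leiden resolution 1) without the complement genes and named from markers. A cluster of 5987 cells was re-clustered after it was seen, and clusters with over 75% of cells from 1 library were set aside. Counts were summed per library and type with at least 20 cells in every library, giving 11 types and 8 subsets. Clusters of macrophages and mesenchymal cells without a name entered no subset, so the subsets do not cover those types. Genotypes were compared by edgeR 4.0.16 (R 4.3.3) quasi-likelihood tests with TMM scaling and filterByExpr, adjusted by Benjamini-Hochberg over all genes tested, at a threshold of 0.05. SEs were derived from the F statistic and are approximate. DESeq2 1.42.0 was an alternative, beside other scaling, filters, doublets, clustering, ambient subtraction and leaving out each library. On simulated counts for macrophages the test recovered 90.2% of 2-fold changes, against 40.4% for neutrophils and 26% for mesenchymal cells. For the interaction test it was 18.9%. Changes were planted only in genes above a count limit, and all genes of a simulation had the same dispersion. The rates therefore do not cover genes with few counts or with a wider spread. Shares of cells used cells thinned to 1000 UMIs, and counting error does not cover capture or amplification. In whole tissue types, fewer molecules per cell and fewer cells of a subset cannot be told apart. The genes named were the 9 members, the 3 highest of the other complement genes per role, and the 3 genes most like each member. Members and lists were chosen with earlier results of these data known.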

Additional observations from a re-analysis of the deposited data

Results flagged for a closer look

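Cells of Nlrp3-/- replicate 1 that were set aside, 10378 cells with a median of 1363.5 UMIs, entered no comparison, and each of the 9 genes had UMIs there above the limit of 0.156 CPM that a count of 0 allows (3 counts, counting error only). C1qa was at 312 CPM in these cells, 518 CPM in the used cells of the same library and 731 CPM in its ambient profile. C1qb was at 343, 523 and 1108 CPM and C1qc at 229, 346 and 541 CPM in the same order. C3 was at 107, 113 and 113 CPM, C4b at 15.1, 12.7 and 15.7 CPM and Cfb at 22.2, 19.3 and 16.6 CPM. Cfp was at 48.7, 76.4 and 100.003 CPM, C3ar1 at 55.4, 86.01 and 83.9 CPM and C5ar1 at 70.3, 90.4 and 83.4 CPM. C4b and Cfb were higher in the cells set aside than in the used cells, and the other 7 genes lower. No replicate of the cells set aside exists, so the differences were not tested. The largest cluster set aside, 6066 cells with 98.3% from this library, was named mesenchymal cells. C4b and Cfb were highest in that type, and the part of this cluster in the differences was not tested.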

How the results depend on the processing

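The 9 calls in each comparison between types held under all alternatives run, except Cfp between macrophages and conventional dendritic cells when clusters of 1 library were kept (-0.60, adjusted p = 0.071). Counts of the 9 genes called between genotypes were less steady. Without a filter on low counts they were 2 in macrophages, 4 in conventional dendritic cells, 4 in endothelial cells, 5 in myeloid progenitors, 2 in B cells, 2 in mast cells and basophils, 1 in pericytes and smooth muscle cells and 1 in T and NK cells. DESeq2 gave 4 in macrophages, 1 in myeloid progenitors and 1 in neutrophils. Ambient subtraction gave 1 in macrophages, kept doublets 1 in conventional dendritic cells and Leiden resolution 2 gave 1 in myeloid progenitors. For kept doublets in conventional dendritic cells and for Leiden resolution 2, the number of all genes called is not given here. Those counts of the 9 genes therefore cannot be set beside a share of all genes. Leaving out 1 library gave 0 to 5 in macrophages, 0 to 1 in conventional dendritic cells, 0 to 1 in myeloid progenitors, 0 to 2 in Ly6c2 Ccr2 monocytes, 0 to 3 in MHC-II macrophages, 0 to 4 in Mrc1 Folr2 macrophages, 0 to 2 in osteoclasts, 0 to 1 in Pi16 Dpp4 fibroblasts and 0 to 2 in tenocyte-lineage cells. Most of the highest counts came without wild-type replicate 3, where the number of all genes called in macrophages was 2512 against 49 and 23 to 45 without any other library; the cause was not tested. With the filter off it was 325 and with DESeq2 521. Over all genes, the fit as reported, that with the filter off and DESeq2 called 38, 212 and 231 genes in neutrophils, 37, 679 and 339 in endothelial cells, 48, 705 and 379 in myeloid progenitors, 101, 570 and 236 in conventional dendritic cells, 28, 319 and 74 in B cells, 28, 474 and 112 in mast cells and basophils and 20, 401 and 95 in pericytes and smooth muscle cells. DESeq2 called 254 in mesenchymal cells against 16, and the filter off gave 210 against 74 in T and NK cells and 195 against 86 in plasmacytoid dendritic cells. Kept doublets gave 43 in B cells, 42 in mast cells and basophils and 35 in pericytes, and ambient subtraction 12 in pericytes. Leaving out 1 library gave 15 to 122 in neutrophils, 8 to 586 in mesenchymal cells, 16 to 2225 in endothelial cells, 18 to 1711 in Mrc1 Folr2 and 16 to 1348 in MHC-II macrophages, 16 to 2025 in osteoclasts and 5 to 148 for the interaction. The same fits called 24 to 730 of all genes in Ly6c2 Ccr2 monocytes, 3 to 516 in Pi16 Dpp4 fibroblasts and 22 to 449 in tenocyte-lineage cells. They called 27 to 1387 in myeloid progenitors and 18 to 1102 in conventional dendritic cells.

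Replicate numbers did not pair the libraries (same-number correlations of -0.735 to 0.113, 1 of 9 over 0.1). The replicate block left the count of the 9 genes called as it was in all 19 genotype comparisons (C4b in Mrc1 Folr2 macrophages, adjusted p = 0.0236), and gave 30 of all genes against 49 for macrophages, 17 against 38 for neutrophils and 4 against 16 for mesenchymal cells.

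Directions turned in mesenchymal cells for C4b with doublets kept (-0.00404), Cfp (0.84) and C5ar1 (1.58) with clusters of 1 library kept and C5ar1 after ambient subtraction (0.14). Leaving out 1 library gave -0.16 to 0.068 for C1qb in macrophages, -0.15 to 0.50 for C4b and -0.19 to 0.024 for C5ar1 in mesenchymal cells, and -0.68 to 0.12 for C3 in Pi16 Dpp4 fibroblasts. None of these passed the test. Thinned to 500 UMIs, shares of cells were 30.6% for C1qa, 33.4% for C1qb, 25.8% for C1qc and 10.98% for C3ar1 in macrophages, 12.4% for C3 and 15.9% for C5ar1 in neutrophils, 2.51% for C4b and 4.26% for Cfb in mesenchymal cells and 12.2% for Cfp in conventional dendritic cells.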
